A study of Mus musculus with 3 samples.

Results

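The genes described here are 10 genes of the cartilage program: the collagen genes Col2a1, Col9a1, Col9a2 and Col9a3, the proteoglycan gene Acan, the link protein gene Hapln1, the secreted factor gene Mia, and the transcription factor genes Sox5, Sox6 and Sox9. They were chosen by name, with earlier results of these data known, and are 10 of the 27040 gene identifiers that all 3 libraries shared. Their levels are therefore a description, and no test is attached to them. Each gene was read in the count matrices by marker-defined cell class within each library, and pairs of the genes were also read cell by cell.

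The libraries hold single cells from mouse mandibular molars, whose dental pulp and periodontium (the tissue that anchors the tooth) were dissociated with enzymes before fluorescence sorting and droplet 3' sequencing. The first group was Col1a1-GFP; Cxcl12-creER; R26R(tdTomato/+) at postnatal day 25, sorted for GFP, tdTomato or both (P25). The next was Cxcl12-creER; R26R(tdTomato/+) at postnatal day 6, sorted as tdTomato-positive cells (Cxcl12-creER P6), and the last was Cxcl12-GFP/+ at postnatal day 6, sorted as GFP-positive cells (Cxcl12-GFP P6). GFP reported the bone and dentin collagen gene Col1a1 at P25 and the chemokine gene Cxcl12 in Cxcl12-GFP P6, and tdTomato marked cells in which a Cxcl12-driven inducible recombinase had acted. All 3 genotypes therefore carry a Cxcl12 reporter or driver, and the time of tamoxifen is not in the labels used here. With 1 library per group, the values carry counting error and no error between animals, whose number is not in the labels used here. Age, genotype, sort gate and library differ together between P25 and both day 6 libraries and cannot be told apart.

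In cartilage, collagen II fibrils carry collagen IX on their surface, and aggrecan bound to hyaluronan fills the space between them. Sox9 is the factor that turns this program on in chondrocytes, and Sox5 and Sox6 act with it on Col2a1 and Acan. A tooth holds no cartilage: its mesenchyme forms the papilla, which becomes dental pulp and the odontoblasts that make dentin, and the follicle, which gives rise to the periodontal ligament, cementoblasts and alveolar osteoblasts.

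Upstream sequence is shown for Col9a1 and Acan because at P25 they lay on opposite sides, Col9a1 in pulp-like and Acan in ligament-like cells. The windows are the 250 bases before the RefSeq gene start (GRCm38.p6, plus strand, 5′ to 3′), and neither overlaps an annotated exon. The Col9a1 window, chr1:24177360-24177609, is 43.6% GC, and the Acan window, chr7:79052976-79053225, is 74.4% GC, against a median of 52.4% over 32851 such windows. Capitals mark GC boxes (GGGCGG, read on both strands), of which the Acan window holds 3, a pair of them overlapping.
Col9a1: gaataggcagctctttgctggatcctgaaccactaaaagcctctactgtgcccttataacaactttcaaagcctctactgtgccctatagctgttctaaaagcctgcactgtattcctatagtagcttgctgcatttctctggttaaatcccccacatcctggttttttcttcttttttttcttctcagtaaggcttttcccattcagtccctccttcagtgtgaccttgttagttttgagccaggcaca
Acan: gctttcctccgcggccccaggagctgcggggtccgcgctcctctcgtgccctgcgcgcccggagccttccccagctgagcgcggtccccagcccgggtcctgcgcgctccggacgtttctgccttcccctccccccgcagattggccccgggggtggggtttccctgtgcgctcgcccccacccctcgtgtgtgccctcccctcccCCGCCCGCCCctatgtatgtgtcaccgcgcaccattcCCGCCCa
The GC box occurs in 32.74% of all windows and in 3 of the 13 windows found for 7 of the 10 genes. The letters ACAATG, a core of SOX binding motifs, occur in 10.69% of all windows and in 3 of these 13, and TATAAA occurs in 12.37% and in 1 of 13. Neither printed window holds ACAATG or TATAAA on either strand. These matches describe letters in a window and are not binding sites.

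The matrices held 6693 barcodes in P25, 1691 in Cxcl12-creER P6 and 7528 in Cxcl12-GFP P6, with 99277096, 6596256 and 68891094 unique molecular identifiers (UMIs, each standing for 1 captured transcript). After filtering, 5401, 1121 and 7065 cells were kept, at median depths of 14862, 1464 and 8142 UMIs, so Cxcl12-creER P6 is the shallow library of the 3. Levels are CPM, the UMIs of a gene summed over a class and scaled by the class total, and intervals in parentheses are 95% intervals for counting error only. A papilla or pulp-like class held 363 cells at P25 and 3576 in Cxcl12-GFP P6, a follicle or ligament-like class 1770, 237 and 1303 cells in P25, Cxcl12-creER P6 and Cxcl12-GFP P6, and an osteoblast or cementoblast-like class 1250, 139 and 292. No cluster of Cxcl12-creER P6 took the papilla name. Its follicle-like class rests mostly on cluster 6, whose 67 cells (median 21238 UMIs) hold 1557274 of the 1813356 UMIs of the class, while its other clusters have medians of 828 to 1502 UMIs. Cluster 6 and cluster 0, the one with the most cells (133), had 159 and 19.0 CPM of Sox9, 264 and 152 CPM of Col9a2, and 76.4 and 28.5 CPM of Hapln1. Barcodes that begin with the same 8 bases as a P25 barcode were 82.3% of those in Cxcl12-creER P6 and 21.01% in Cxcl12-GFP P6; the labels name a single chemistry, and whether the libraries differ in barcode set or chemistry was not tested. Unnamed clusters held 725, 491 and 1722 cells. The libraries P25 and Cxcl12-creER P6 shared 5 barcodes, P25 and Cxcl12-GFP P6 shared 1, and the day 6 libraries shared 0.

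None of the clusters was named chondrocyte-like. A list of 8 chondrocyte markers that excludes the 10 genes (Cnmd, Matn1, Matn3, Snorc, Ucma, Chad, Col10a1 and Cytl1) summed to 195.1 CPM in the papilla class of Cxcl12-GFP P6, where only Cnmd, which encodes the cartilage protein chondromodulin, reached 10% of the cells. Its sum was 7.10 CPM in P25 pulp, 5.80 CPM in P25 ligament and 12.6 CPM in the Cxcl12-GFP P6 follicle class. It was 1.28 CPM in P25 osteoblast-like cells, with Cnmd, Matn1, Snorc, Ucma and Cytl1 at 0. The classes below take their names from markers of papilla, follicle and bone-forming cells, whatever the level of the cartilage genes. Some names are weak. The osteoblast-like cluster of Cxcl12-GFP P6 scored 3.036 on its own list and 2.588 on the follicle list, with Tnmd and Aspn among its leading genes. Cluster 10 of Cxcl12-creER P6 goes in part against its name, as given below.

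Among named classes of at least 50 cells, collagen IX was highest in the papilla or pulp-like class at both ages. At P25 that class is 1 cluster, and unnamed clusters 7 and 12 had little Col9a1, as given below. Col9a1 (chromosome 1, 24177610 to 24252684, plus strand, ENSMUSG00000026147, GRCm38) had 26.6 CPM (21.8 to 32.2) in P25 pulp-like cells and 267 CPM (261 to 273) in Cxcl12-GFP P6 papilla-like cells. In follicle or ligament-like cells it had 2.87 CPM at P25, 25.4 CPM in Cxcl12-creER P6 and 20.3 CPM in Cxcl12-GFP P6. The papilla or pulp class was the highest of the classes with at least 50 cells in each of the libraries that hold it, and its interval overlapped no other class.

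Col9a2 (chromosome 4, 121039385 to 121055322, plus strand, ENSMUSG00000028626) encodes the second collagen IX chain. It had 547 CPM (524 to 570) in P25 pulp-like cells and 1394 CPM (1380 to 1407) in Cxcl12-GFP P6 papilla-like cells. Follicle or ligament-like cells had 73.6 CPM at P25, 245 CPM in Cxcl12-creER P6 and 195 CPM in Cxcl12-GFP P6. After each cell was thinned to 3000 UMIs, 72.7% of P25 pulp-like cells and 95.7% of Cxcl12-GFP P6 papilla-like cells had a Col9a2 UMI, and the unthinned shares were 91.7% and 99.5%. The same thinned share was 0.826% in P25 macrophage-like cells and 11.8% in Cxcl12-GFP P6 endothelial-like cells, types that should lack the gene. Their cells held 14187 and 7248 UMIs at the median. The background share was thus higher in Cxcl12-GFP P6 than at P25.

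Col9a3 (chromosome 2, 180597790 to 180622189, plus strand, ENSMUSG00000027570), the third chain, had 87.7 CPM (78.7 to 97.5) in P25 pulp-like cells and 487 CPM (479 to 495) in Cxcl12-GFP P6 papilla-like cells. In follicle or ligament-like cells it had 1.68 CPM at P25, 59.6 CPM in Cxcl12-creER P6 and 24.2 CPM in Cxcl12-GFP P6. At P25 the pulp-like interval overlapped that of Schwann-like cells, which had 56.0 CPM (34.7 to 85.6) and came next among the named classes. Unnamed cluster 12 of P25 was higher than both, at 221 CPM, and unnamed cluster 17 had 57.9 CPM. Tcfl5 overlaps Col9a3 on the opposite strand, and whether the counting used strand is not given in the sources used here.

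Col2a1 (chromosome 15, 97975602 to 98004695, minus strand, ENSMUSG00000022483), which encodes the main fibrillar collagen of cartilage, did not follow collagen IX. P25 osteoblast or cementoblast-like cells had 1511 CPM (1494 to 1527), while P25 pulp-like cells had 4.31 CPM (2.51 to 6.90) and P25 ligament-like cells 13.5 CPM (12.3 to 14.9). In Cxcl12-creER P6 the osteoblast-like class had 395 CPM (338 to 459) and the follicle-like class 12.7 CPM. That osteoblast-like level rests on 170 UMIs in 24 of 139 cells, with 54 in the highest cell, and its interval leaves out this spread between cells. In Cxcl12-GFP P6 papilla-like cells were highest, at 64.7 CPM (61.8 to 67.7), while osteoblast-like cells had 5.42 CPM and follicle-like cells 3.49 CPM, both at the endothelial-like level of 7.05 CPM. The P25 pulp level was not told apart from that of macrophage-like cells, at 4.09 CPM (ratio 1.05, 0.495 to 2.27).

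**Figure D1:**
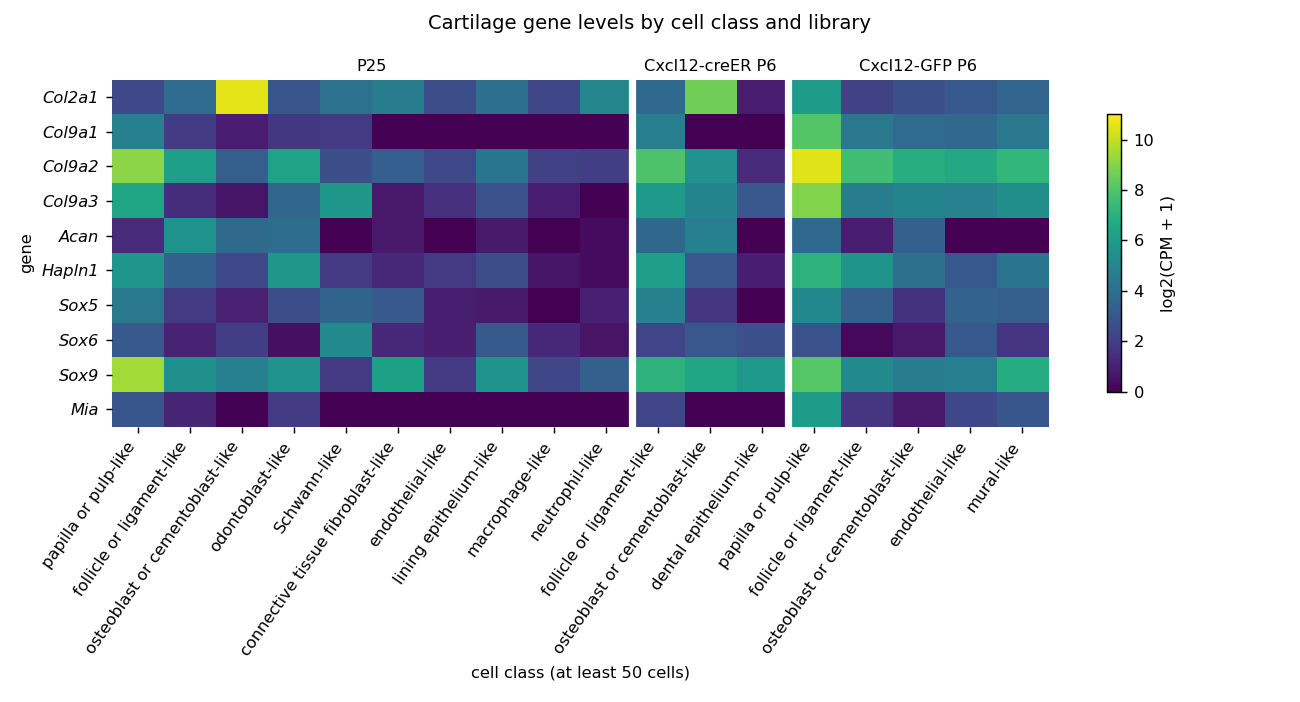
Level of each of the 10 genes in every class of at least 50 cells, as log2(CPM + 1) in colour (brighter is higher), with 1 column per class and the libraries side by side (1 library each, no replicates). Col2a1 is brightest in P25 osteoblast or cementoblast-like cells (1511 CPM), while Col9a2 is brightest in papilla or pulp-like cells (547 CPM at P25 and 1394 CPM in Cxcl12-GFP P6).

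Acan (chromosome 7, 79053483 to 79115099, plus strand, ENSMUSG00000030607) encodes aggrecan, the large proteoglycan that holds water in cartilage. It had 49.6 CPM (47.1 to 52.1) in P25 ligament-like cells, from 1538 UMIs, and 1.52 CPM in P25 pulp-like cells, from 6 UMIs. In Cxcl12-GFP P6 the follicle-like class had 0.827 CPM, from 9 UMIs, and the papilla-like class 12.5 CPM (11.3 to 13.9). Cxcl12-creER P6 had 11.6 CPM in follicle-like and 25.6 CPM in osteoblast-like cells, from 21 and 11 UMIs. The P25 ligament level lay above every other class of at least 50 cells in its library, next to odontoblast-like cells at 14.1 CPM and osteoblast-like cells at 13.0 CPM, whose intervals overlapped each other.

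Hapln1 (chromosome 13, 89539796 to 89611652, plus strand, ENSMUSG00000021613) encodes the link protein that ties aggrecan to hyaluronan. P25 had 56.4 CPM in odontoblast-like and 54.0 CPM in pulp-like cells, with overlapping intervals, and 9.83 CPM in ligament-like cells. Cxcl12-creER P6 had 68.9 CPM in follicle-like cells. In Cxcl12-GFP P6, papilla-like cells had 137 CPM (133 to 141) and follicle-like cells 51.4 CPM (47.2 to 55.8). That follicle-like level was 7.29-fold above endothelial-like cells. At P25 the unnamed clusters 12 and 17 were higher still, at 186 and 88.0 CPM.

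Mia (chromosome 7, 27179742 to 27181157, minus strand, ENSMUSG00000089661) encodes a small secreted protein of chondrocytes. It had 6.59 CPM (4.31 to 9.66) in P25 pulp-like cells and 64.3 CPM (61.4 to 67.3) in Cxcl12-GFP P6 papilla-like cells, and 1.22, 3.86 and 2.30 CPM in the follicle or ligament-like classes of P25, Cxcl12-creER P6 and Cxcl12-GFP P6. The annotation places the read-through gene Gm21983 over Mia on the same strand, so the authors' counting could have split their reads.

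Among the Sox genes, only Sox9 was well covered. Sox9 (chromosome 11, 112782224 to 112787760, plus strand, ENSMUSG00000000567) had 711 CPM (685 to 737) in P25 pulp-like cells and 275 CPM (269 to 281) in Cxcl12-GFP P6 papilla-like cells. The follicle or ligament-like classes had 44.9 CPM at P25, 139 CPM in Cxcl12-creER P6 and 36.8 CPM in Cxcl12-GFP P6, the last with an interval that overlapped endothelial-like cells at 25.4 CPM. The class highest in Col2a1, P25 osteoblast-like cells, had 26.2 CPM of Sox9.

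Sox5 (chromosome 6, 143828425 to 144781977, minus strand, ENSMUSG00000041540) had 20.03 CPM in P25 pulp-like cells and 33.9 CPM in Cxcl12-GFP P6 papilla-like cells, against 2.74 CPM in P25 ligament-like and 9.10 CPM in Cxcl12-GFP P6 follicle-like cells. Sox6 (chromosome 7, 115470872 to 116038796, minus strand, ENSMUSG00000051910) had 7.35 CPM in P25 pulp-like and 5.75 CPM in Cxcl12-GFP P6 papilla-like cells, the second at the endothelial-like level of 7.05 CPM (5 UMIs). Sox6 had 1.13 CPM in P25 ligament-like and 0.184 CPM, from 2 UMIs, in Cxcl12-GFP P6 follicle-like cells, the latter below the endothelial-like level. Its higher levels were in Schwann-like cells, 37.3 CPM at P25 and 50.5 CPM in the 34 such cells of Cxcl12-GFP P6. Both genes overlap antisense or intronic transcripts in the annotation and are uncertain at these counts.

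The papilla was then set against the follicle within each library, where library, age and genotype are shared. A gene was counted where its log2 ratio, with 1 CPM added to each side, was at least 1 in size (2-fold), among genes with at least 20 CPM in the higher class. At P25, 7 of the 10 genes reached 20 CPM, of which 6 were higher in pulp-like cells and 1, Acan, was lower. Over all genes, 15.9% were called higher and 8.82% lower, 24.7% in either direction (of 6710 genes). In Cxcl12-GFP P6, 8 of the 10 reached 20 CPM and all 8 were higher in papilla-like cells, where 7.27% of all genes were called higher and 7.46% lower, 14.7% in either direction (of 6717). The members were chosen for such levels, so nothing is read from these counts.

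The sizes differed by gene and library. Col9a2 stood 7.43-fold (7.00 to 7.88) higher in pulp-like over ligament-like cells at P25 and 7.13-fold (6.83 to 7.46) higher in papilla-like over follicle-like cells in Cxcl12-GFP P6. The P25 gate took GFP, tdTomato or both, and the classes mix them differently: 205 pulp-like and 516 ligament-like cells had at least 5 tdTomato UMIs, and 50 and 775 had at least 5 GFP UMIs with under 5 of tdTomato. The P25 ratio of Col9a2 was 3.86 (3.57 to 4.17) within the tdTomato cells (553 CPM in pulp-like against 143 CPM in ligament-like cells) and 34.3 (28.9 to 40.8) within the GFP cells (525 against 15.3 CPM). Sox9 had 10.1-fold (9.20 to 11.1) and 25.2-fold (21.8 to 29.1), and Acan a ratio of 0.0668 and 0.0254, in tdTomato and in GFP cells. Col9a1, Col9a2, Col9a3, Hapln1, Sox5 and Sox9 were higher in pulp-like cells, and Acan lower, within tdTomato cells and within GFP cells. Sox6 was also higher, at 7.20-fold (3.19 to 17.3) in tdTomato and 9.97-fold (1.66 to 43.7) in GFP cells, with all levels under 20 CPM. Over the whole classes at P25, Sox9 had 15.8-fold (14.9 to 16.9) and Col9a1 9.28-fold (6.93 to 12.5). Col9a3 had 87.7 CPM in P25 pulp-like cells, while its P25 ligament-like 1.68 CPM is at the macrophage-like level. Between the named classes, collagen IX and Sox9 therefore kept the papilla side at both ages. At P25 the pulp-like class is 1 cluster. For Col9a1, unnamed clusters 7 and 12 of P25, given below, lay near the ligament-like level. In Cxcl12-GFP P6 the follicle-like values of Col2a1, Col9a1, Col9a3, Acan, Sox5, Sox9 and Mia were not told apart from endothelial-like cells. Their ratio intervals include 1. Only 77 endothelial-like cells set this reference, so the intervals are wide (0.828 to 3.55 for Col9a1), and for Acan these cells held 0 UMIs. No exact day 6 fold is read for these genes. Of the follicle-like levels, those of Col9a2 (1.98-fold) and Hapln1 lay above endothelial-like cells. With 98.7 CPM of Col9a2 in endothelial-like cells against 195 CPM in follicle-like cells, the day 6 ratio of Col9a2 is not exact either.

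Acan lay on opposite sides in the 2 libraries. At P25 its pulp-like over ligament-like ratio was 0.0307 (0.0112 to 0.0670). In Cxcl12-GFP P6 papilla-like cells had 12.5 CPM, under the 20 CPM minimum, and follicle-like cells 0.827 CPM, not told apart from endothelial-like cells. Col2a1 had a ratio of 0.318 at P25, where both classes were under 20 CPM, and 64.7 CPM in papilla-like against 3.49 CPM in follicle-like cells of Cxcl12-GFP P6. Mia had 5.38-fold (3.14 to 9.10) at P25, where both classes were under 20 CPM, and 64.3 CPM in papilla-like against 2.30 CPM in follicle-like cells of Cxcl12-GFP P6.

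Other genes of the cartilage program, from 6 lists of 60 genes in all, separated the same pair of classes. Of the other cartilage matrix genes, 4 of 7 tested were higher in papilla-like cells of Cxcl12-GFP P6 and 0 lower, led by Cnmd, which is also on the chondrocyte list (175 CPM in papilla-like against 8.73 CPM in follicle-like cells) and Chadl (114 against 21.4 CPM), a small leucine-rich protein gene. At P25, 2 of 4 were higher in pulp-like cells, with the matrilin gene Matn4 at 1505 CPM against 139 CPM in ligament-like cells, and 2 were lower, with the fibrillar collagen gene Col11a1 at 38.0 CPM against 1735 CPM. Most aggrecan and collagen protease genes lay on the ligament side in both libraries. Of 5 tested at P25, the inhibitor gene Timp3 was higher in pulp-like cells (2142 CPM against 530 CPM in ligament-like cells) and 4 were lower, with the collagenase gene Mmp13 at 21.3 CPM against 1338 CPM and the aggrecanase gene Adamts5 at 3.80 CPM against 123 CPM, and 4 of 5 were lower in papilla-like cells of Cxcl12-GFP P6, with Adamts5 at 3.44 CPM against 69.2 CPM. At P25 Acan, Mmp13 and Adamts5 were thus higher in the same class.

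Vcan, whose product versican is a hyaluronan-binding relative of aggrecan, was on the papilla side throughout, at 261 CPM in pulp-like against 75.6 CPM in ligament-like cells at P25 and 756 CPM in papilla-like against 148 CPM in follicle-like cells of Cxcl12-GFP P6. Among other regulators of chondrogenesis, 4 of 9 tested were higher and 4 lower in pulp-like cells at P25, and 1 of 7 was higher and 3 lower in papilla-like cells of Cxcl12-GFP P6. Runx2, the osteoblast factor, had 46.9 CPM in P25 pulp-like against 205 CPM in ligament-like cells, and 19.3 CPM in Cxcl12-GFP P6 papilla-like against 146 CPM in follicle-like cells. Sox11 was on the papilla side, with 55.01 against 9.25 CPM at P25 and 165 against 51.1 CPM in Cxcl12-GFP P6. The hypertrophic list gave 0 higher and 2 lower of 3 tested at P25, and 1 higher and 1 lower of 4 in Cxcl12-GFP P6. The chondroitin sulfate list gave 1 higher and 2 lower of 7 at P25 and 1 higher and 0 lower of 4 in Cxcl12-GFP P6. The hyaluronan list gave 1 higher and 1 lower of 2 at P25 and 2 higher of 2 in Cxcl12-GFP P6. The median log2 ratio was 2.84 for the tested cartilage genes and 0.26 for all tested genes at P25, and 3.26 and 0.12 in Cxcl12-GFP P6.

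Between the libraries, pulp-like cells at P25 had less of most cartilage matrix genes than papilla-like cells of Cxcl12-GFP P6, and more Sox9. Of 8 genes tested, 6 were lower at P25 and 1 higher, where 12.1% of all genes were called lower and 11.9% higher, 24% in either direction (of 7015). For Col2a1, P25 pulp-like cells were not told apart from macrophage-like cells (4.31 CPM against 64.7 CPM in Cxcl12-GFP P6), so no exact ratio is read. The ratios of P25 over Cxcl12-GFP P6 were 0.0996 (0.0814 to 0.121) for Col9a1 and 0.103 (0.0668 to 0.151) for Mia. They were 0.180 for Col9a3, 0.392 for Col9a2 and 0.394 for Hapln1. Sox9 stood 2.58-fold (2.47 to 2.70) higher at P25, and Sox5, at 0.591, was within 2-fold. The median log2 ratio of all tested genes was -0.18 here. The classes had median depths of 10944 UMIs at P25 and 7867.5 UMIs in Cxcl12-GFP P6, with 5.69% and 3.28% mitochondrial UMIs, and the part of these in the result was not tested.

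The lower values at P25 depend on which day 6 papilla cells they are set against. The P25 class is 1 cluster, while the Cxcl12-GFP P6 class holds 5 clusters that differ widely. P25 pulp-like cells lay inside the range of those 5 clusters for Col2a1 (4.31 CPM at P25, 1.90 to 161 CPM over the clusters), Col9a1 (26.6 CPM, 18.0 to 499 CPM), Col9a3 (87.7 CPM, 71.6 to 785 CPM), Hapln1 (54.0 CPM, 50.3 to 263 CPM) and Mia (6.59 CPM, 2.13 to 114 CPM). They lay below all 5 for Col9a2, at 547 CPM against 952 to 1803 CPM, and above all 5 for Sox9, at 711 CPM against 248 to 300 CPM. The 10 leading genes of the P25 cluster shared Cldn10, Fmod and Nr0b1 with those of cluster 1 of Cxcl12-GFP P6 and Trf and Cldn10 with cluster 5. They shared Angpt4 and Fmod with cluster 0, Angpt4 with cluster 3 and none with cluster 8. The overlap was thus largest with cluster 1 but does not single out 1 of the 5 clusters.

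Unnamed P25 clusters that shared leading genes with the pulp-like cluster, among them Apod, had little Col9a1. Cluster 7, with 279 cells at a median of 7252 UMIs and led by Apod, Trf and Cldn10, had 2.24 CPM of Col9a1, 253 CPM of Col9a2 and 682 CPM of Sox9. Cluster 12, with 201 cells and Crabp1 and Pcp4 among its leading genes, had 3.59 CPM of Col9a1, 238 CPM of Col9a2, 221 CPM of Col9a3 and 186 CPM of Hapln1, so its Col9a3 and Hapln1 lay inside the day 6 range and its Col9a1 below it.

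In follicle or ligament-like cells, Acan had 49.6 CPM at P25, against 11.6 CPM (7.17 to 17.7) in Cxcl12-creER P6 and 0.827 CPM in Cxcl12-GFP P6. The Cxcl12-creER P6 value rests on 21 UMIs, all in the 67 cells of cluster 6. The Cxcl12-GFP P6 value rests on 9 UMIs and was not told apart from endothelial-like cells, so no exact fold is read. Of 6 genes tested against Cxcl12-GFP P6, Acan alone was higher and 4 were lower at P25, where 9.35% of all genes were called higher and 17.5% lower, 26.8% in either direction (of 6639). For Acan, all 5 P25 clusters of the class, from 27.6 to 66.9 CPM, lay above both Cxcl12-GFP P6 clusters, at 0.836 and 0.811 CPM. The ratio of P25 over Cxcl12-GFP P6 was 0.191 for Hapln1 and 0.377 for Col9a2, and Sox9 was within 2-fold. For Col9a2 the Cxcl12-GFP P6 follicle-like level was 195 CPM against 98.7 CPM in endothelial-like cells, so the size of its ratio is uncertain. Col9a1 and Col9a3 were also counted as lower, but their Cxcl12-GFP P6 follicle-like values were not told apart from endothelial-like cells. Nor was the Col9a3 value of P25 ligament-like cells told apart from macrophage-like cells. These 2 genes are therefore not read as a difference in expression. Hapln1 was lower in all 5 P25 clusters (2.45 to 27.5 CPM) than in both day 6 clusters (38.4 and 58.1 CPM). The median log2 ratio of all tested genes was -0.36.

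Other listed genes were also higher in ligament-like cells at P25. Of 5 other cartilage matrix genes tested, 3 were higher at P25 and 0 lower, with Col11a1 at 1735 CPM at P25 against 189 CPM in Cxcl12-GFP P6. Cd44, a hyaluronan receptor gene, had 163 CPM at P25 against 9.01 CPM, Mmp13 1338 CPM against 86.4 CPM, and the parathyroid hormone receptor gene Pth1r 281 CPM against 57.3 CPM. In pulp-like cells, of 7 other matrix genes 2 were higher and 3 lower at P25. Cnmd had 1.014 CPM at P25, from 4 UMIs, against 175 CPM in Cxcl12-GFP P6, and the inhibitor gene Timp3 had 2142 CPM against 237 CPM. Regulators of chondrogenesis gave 4 higher and 1 lower of 9 tested in pulp-like cells, with Foxc1 at 72.3 CPM at P25 against 10.2 CPM and Sox4 at 1032 CPM against 367 CPM, and 0 higher and 1 lower of 7 in follicle or ligament-like cells. Proteases and inhibitors gave 2 higher and 0 lower of 3 tested in pulp-like cells and 2 higher and 0 lower of 5 in follicle or ligament-like cells. Hypertrophic, chondroitin sulfate and hyaluronan lists gave 0 higher and 3 lower of 12 tested in pulp-like cells, 1 on each list. In follicle or ligament-like cells they gave 2 higher of 3, 1 higher and 1 lower of 6, and 1 higher of 2.

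**Figure D2:**
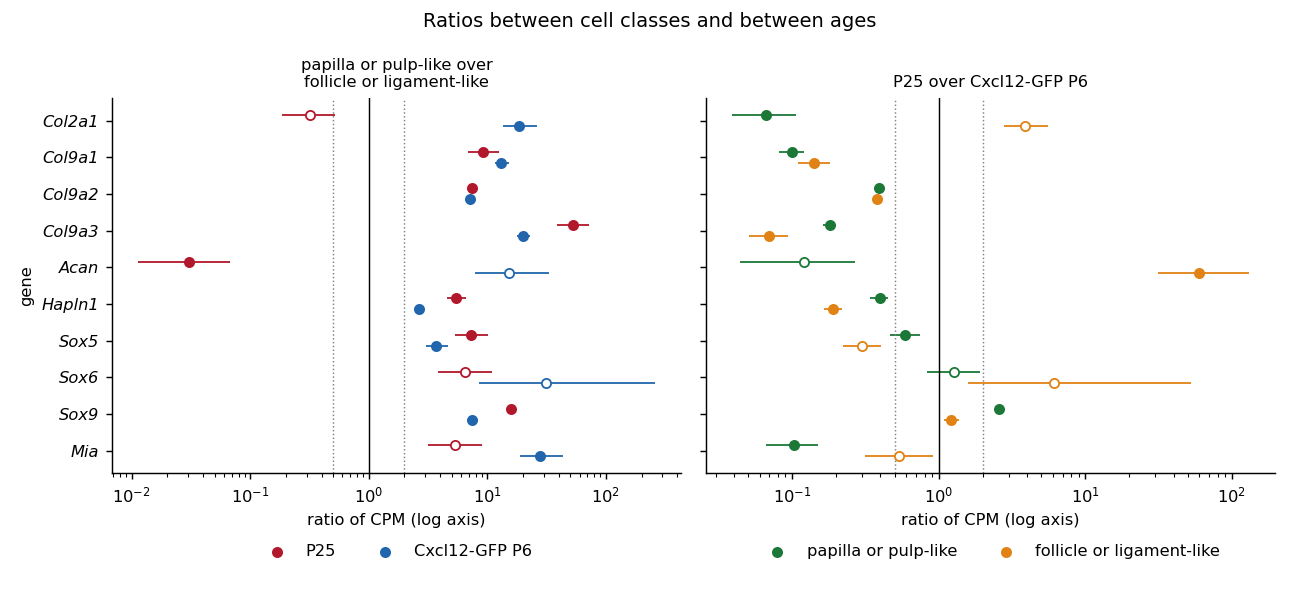
Ratio of CPM for each gene on a log axis, with 95% intervals for counting error. The left panel gives papilla or pulp-like over follicle or ligament-like cells in P25 (red) and Cxcl12-GFP P6 (blue), the right panel P25 over Cxcl12-GFP P6 in papilla or pulp-like (green) and follicle or ligament-like cells (orange). Open circles mark genes under 20 CPM in both classes, and dotted lines mark 2-fold. Acan lies far left in P25 (0.0307) and right of 1 in Cxcl12-GFP P6, where follicle-like Acan rests on 9 UMIs. Sox9 is the filled point right of 2-fold in pulp (2.58).

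Within the Cxcl12-GFP P6 papilla, the genes fell into those that varied between clusters and those that hardly did. Sox9 was nearly level, at 285, 300, 282, 248 and 259 CPM in clusters 3, 0, 8, 1 and 5, a range of 1.21-fold (1.14 to 1.29) from the lowest to the highest. Col9a2 ranged over 1.90-fold (1.82 to 1.97). The same clusters had 499, 439, 209, 61.2 and 18.0 CPM of Col9a1, a range of 27.7-fold (22.04 to 35.2). Col2a1 had 116, 69.3, 161, 4.87 and 1.90 CPM, a range of 85.0-fold (42.8 to 198), and Mia 105, 114, 79.0, 6.54 and 2.13 CPM, a range of 53.6-fold (28.1 to 118). Clusters 3, 0 and 8 were thus high in Col2a1, Col9a1 and Mia, and clusters 1 and 5 low, on a background of similar Sox9.

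Col9a3 ranged over 10.97-fold, Hapln1 over 5.24-fold with its highest level in cluster 8 (263 CPM), and Sox5 over 4.87-fold. Acan had 18.9, 22.05, 9.33, 5.15 and 1.66 CPM in clusters 3, 0, 8, 1 and 5. Cnmd went with the high clusters 3 and 0 (285 and 327 CPM) more than with cluster 8 (38.5 CPM), while Vcan was highest in cluster 8 (1340 CPM). The 10 genes were left out of the genes used for clustering, but other genes of the same cells drew the clusters, so these ranges describe the clusters and test nothing. Cluster 3 and cluster 8 were led by Nell1 and Lypd1, cluster 0 by Rab3b and Angpt4, cluster 1 by Irx5 and Scin, and cluster 5 by Cldn10 and Trf.

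The sorted marker ran the other way. Cxcl12 had 671 and 434 CPM in clusters 5 and 1, and 269, 228 and 175 CPM in clusters 3, 0 and 8. The GFP reporter transcript had 1740 and 1027 CPM in clusters 5 and 1, and 853, 624 and 626 CPM in clusters 3, 0 and 8. Over these 5 clusters, both were higher in the 2 clusters low in Col2a1 and Col9a1. Unnamed clusters 4 and 10, the second led by cycling genes, were intermediate, with 34.3 and 89.0 CPM of Col2a1 and 188 and 184 CPM of Col9a1. In Cxcl12-creER P6, unnamed cluster 5 (67 cells, median 1754 UMIs) had 259 CPM of Col9a1, 770 CPM of Col9a2, 173 CPM of Mia and 324 CPM of Sox9, with 14.4 CPM of Col2a1. Its leading genes Cntn6, Angpt4 and Pcp4 also led high papilla clusters of Cxcl12-GFP P6, an overlap noticed after the fact.

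**Figure D3:**
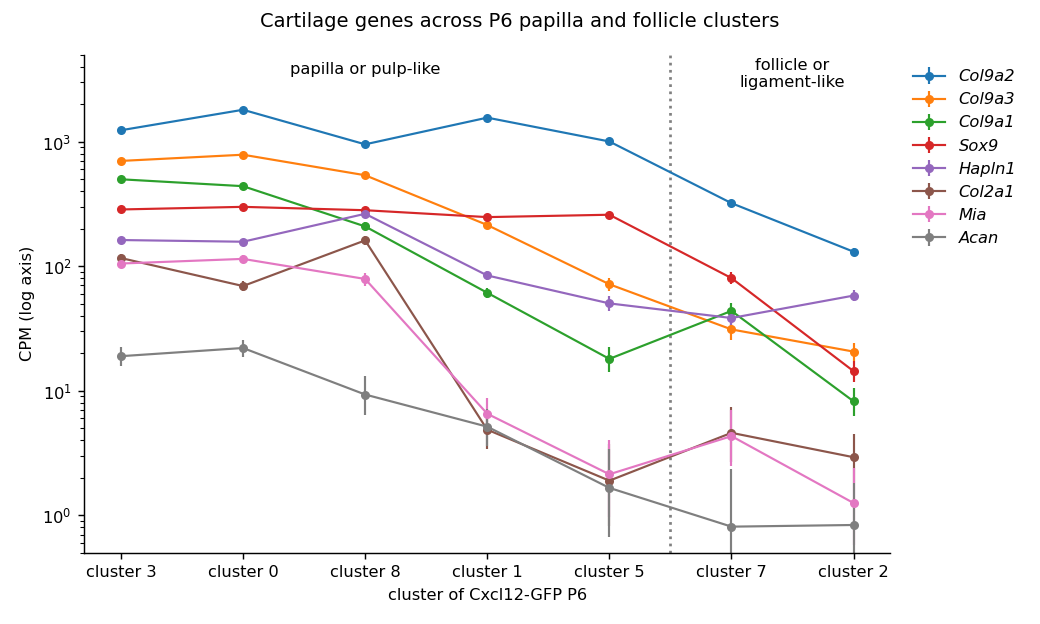
Level of 8 genes in the papilla or pulp-like (left of the dotted line) and follicle or ligament-like clusters of Cxcl12-GFP P6, in CPM on a log axis, with 95% intervals for counting error; lines join the values of a gene and imply no order in time. Sox9 stays between 248 and 300 CPM across the papilla clusters, while Col2a1 is 161 CPM in cluster 8 and 1.90 CPM in cluster 5.

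Genes whose level followed Col2a1 and Col9a1 most closely were found by Pearson's r of log levels over the 17 clusters of Cxcl12-GFP P6, among 9322 genes. These points share 1 library and its free RNA, and r is a description only. The nearest to Col2a1 were Gldn (0.88), the collagen gene Col19a1 (0.87), Snap91 (0.84), Vcan (0.83) and Sept9 (0.82). The nearest to Col9a1 were Vit (0.92), Cntn6 (0.90), Itih2 (0.89), Col19a1 (0.89) and Serinc2 (0.89). Col19a1 was on both lists, with at most 28.1 CPM in any cluster.

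Cell by cell, the matrix genes met in the same papilla cells. Of 6968 Cxcl12-GFP P6 cells thinned to 3000 UMIs (97 shallower cells were left out), 1667 had a Col9a1 UMI, and 347 of these, 20.8% (18.9 to 22.8), also had a Col2a1 UMI. Of the 5301 cells with no Col9a1 UMI, 268 or 5.06% (4.48 to 5.68) had one. Within the papilla-like class alone the shares were 22.9% (20.6 to 25.3) and 9.34% (8.17 to 10.6), so part of the difference was between classes and part within the papilla. Unthinned, the shares over all cells were 33.9% and 7.15%.

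Over all 45 pairs in these cells, Pearson's r of log counts was highest for Col9a1 with Col9a3 (0.49), Col9a2 with Col9a3 (0.44), Col9a2 with Sox9 (0.33) and Col9a1 with Col9a2 (0.33). Within the papilla-like class, Col9a1 with Col9a3 kept 0.45, while Col2a1 with Sox9 was 0.01. All pairs share library and depth, and values near 0 in counts this sparse are no finding. Papilla-like cells with a Col2a1 UMI (503 of 3533) had Col9a1 in 58.1% (53.6 to 62.4), Col9a3 in 81.7%, Hapln1 in 44.7% and Mia in 22.1%, against 32.4% (30.7 to 34.1), 53.9%, 29.1% and 8.48% in those without. Sox9 was found in 54.3% and 53.7%, and Col9a2 in 96.2% and 95.3%, with overlapping intervals for both genes.

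Of the 7 matrix genes (the 4 collagens, Acan, Hapln1 and Mia), at least 4 were found together in 1 of 348 thinned P25 pulp-like cells, 0.287% (0.0073 to 1.59), and in 794 of 3533 Cxcl12-GFP P6 papilla-like cells, 22.5% (21.1 to 23.9). The day 6 share was 39.6% in cluster 3, 37.8% in cluster 8 and 34.7% in cluster 0, and 3.15% and 0.164% in clusters 1 and 5. It was 0 of 76 endothelial-like cells and 0 of 1295 follicle-like cells.

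Col2a1 in the P25 osteoblast or cementoblast-like class came with little of collagen IX, Acan or Sox9. Against ligament-like cells of the same library, 4 of the 10 genes were tested, with Col2a1 higher, Col9a2 and Acan lower and Sox9 within 2-fold, where 4.74% of all genes were called higher and 8.7% lower, 13.4% in either direction (of 5758). Col2a1 stood 112-fold (101 to 123) higher, from 33165 UMIs in osteoblast-like and 420 in ligament-like cells. The ligament-like level, 13.5 CPM, was below that of neutrophil-like (33.1 CPM) and connective tissue fibroblast-like cells (24.5 CPM), so the exact fold is not read. The ratios were 0.121 (0.104 to 0.140) for Col9a2, 0.263 (0.231 to 0.298) for Acan and 0.584 for Sox9. Col9a1, Col9a3, Hapln1, Sox5, Sox6 and Mia were all under 20 CPM in both classes. The median log2 ratio of all tested genes was -0.13.

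The signal was not spread evenly. Clusters 3, 22 and 9 of P25 had 2884 CPM, 1209 CPM and 734 CPM of Col2a1, with a UMI in 82.1%, 73.6% and 70.5% of their 391, 53 and 275 cells. Clusters 6 and 10 had 22.9 and 8.59 CPM, with a UMI in 17.7% and 7.26% of their 283 and 248 cells. Over the class, 622 of 1250 cells had a Col2a1 UMI, 361 had at least 10, the highest cell had 1178, and 69 cells, 5.52% of the class, held 50% of its Col2a1 UMIs. In the Cxcl12-GFP P6 papilla, by contrast, 927 of 3576 cells had a UMI and the highest cell had 8.

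Col2a1 went with the collagen XI gene Col11a2, whose chain joins collagen fibrils, and with late osteoblast genes in part. The other collagen XI gene, Col11a1, had 1735 CPM in ligament-like cells and was not called higher in osteoblast-like cells. Clusters 3, 22, 9, 6 and 10 had 1514, 1307, 316, 25.6 and 56.9 CPM of Col11a2. Over the class, Col11a2 had 824 CPM, against 12.2 CPM in ligament-like cells (67.3-fold, 60.8 to 74.7), and was the only one of 5 other cartilage matrix genes called higher, with 3 called lower. Of the other lists, hypertrophic genes gave 2 higher of 4, with Mef2c at 683 CPM against 117 CPM in ligament-like cells, chondroitin sulfate genes 2 higher and 1 lower of 7, hyaluronan genes 1 lower of 2, proteases 2 lower of 5 and regulators 1 higher and 1 lower of 7. Cluster 3 was highest in the osteocalcin gene Bglap (92749 CPM) and cluster 22 in Dmp1 (6712 CPM), a gene of osteocytes and odontoblasts. Cluster 10 was highest in the bone sialoprotein gene Ibsp (40182 CPM) and had little Col2a1, so high Ibsp alone did not mark the Col2a1 cells. Col9a1 was at most 2.13 CPM in any of the 5 clusters. Sox9 was 8.42 CPM in cluster 3, 3.42 CPM in cluster 22 and 34.7 CPM in cluster 9, against 86.3 CPM in cluster 6.

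**Figure D4:**
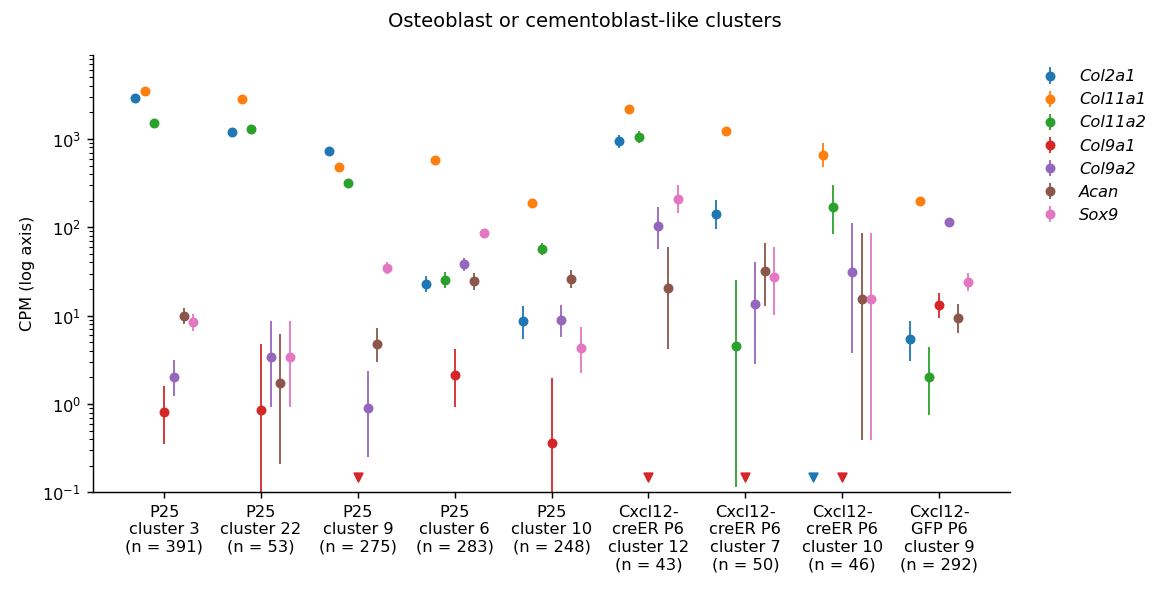
Level of Col2a1, the collagen XI genes, Col9a1, Col9a2, Acan and Sox9 in each osteoblast or cementoblast-like cluster of the 3 libraries, in CPM on a log axis with 95% intervals for counting error; triangles at the bottom mark a count of 0. Col2a1 is 2884 CPM in P25 cluster 3, 948 CPM in Cxcl12-creER P6 cluster 12 and 5.42 CPM in Cxcl12-GFP P6 cluster 9.

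At the level of cells, P25 osteoblast-like cells with a Col2a1 UMI (463 of 1203 after thinning) had Col9a1 in 0.216%, Col9a2 in 1.08% (0.352 to 2.50), Acan in 0.432% (0.0524 to 1.55) and Sox9 in 4.54% (2.83 to 6.85). Those without had Col9a1 in 0.135%, Col9a2 in 4.05% (2.75 to 5.74), Acan in 5.0% (3.54 to 6.83) and Sox9 in 8.65% (6.72 to 10.9). Hapln1 was in 1.51% (0.610 to 3.09) of the cells with a Col2a1 UMI and 0.405% (0.0837 to 1.18) of those without, and Sox6 in 0.648% and 0.811%. By cluster, unthinned, Hapln1 was in 11.5% and 18.9% of cells in clusters 3 and 22 and in 2.55%, 0.353% and 4.03% in clusters 9, 6 and 10, and Sox6 was in 18.9% of cluster 22 and 0.403% of cluster 10. Sox5 and Mia were in 0 of the 463 cells. None of the 1203 cells held at least 4 of the 7 matrix genes. Beside this, 58.1% of Col2a1-positive papilla-like cells of Cxcl12-GFP P6 had Col9a1 and 54.3% had Sox9.

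The osteoblast-like Col2a1 level was similar in tdTomato and GFP cells and lower in cells with little of either. Cells with at least 5 tdTomato UMIs had 1713 CPM (1668 to 1759) of Col2a1 in 168 cells, those with at least 5 GFP UMIs and under 5 tdTomato UMIs had 1686 CPM (1666 to 1707) in 797 cells, and those under 5 of both had 481 CPM (458 to 505) in 285 cells. Reporter UMIs stand in for the sort, whose gate per cell is not in the files used here. The cut is an absolute count, and the cells under 5 of both were shallower. Those 285 cells held 3272004 UMIs in all, while the 168 tdTomato cells held 3211734. The part of depth and of cluster make-up in their lower Col2a1 level was not tested. Other levels did differ between tdTomato and GFP cells. In osteoblast-like cells Col9a2 had 20.9 CPM in tdTomato against 4.202 CPM in GFP cells, and Sox9 38.3 against 17.6 CPM. In ligament-like cells Col9a2 had 143 against 15.3 CPM, Sox9 71.4 against 25.5 CPM and Col2a1 22.7 against 5.31 CPM, while Acan was lower in tdTomato cells, at 31.8 against 62.2 CPM. Osteoblast-like cells under 5 of both had 19.6 CPM of Col9a2 and 54.7 CPM of Sox9. Ligament-like cells under 5 of both had 105 CPM of Col9a2, 51.3 of Sox9, 18.8 of Col2a1 and 45.8 of Acan. The tdTomato cells here may also hold GFP UMIs, and which reporter these differences go with was not tested.

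**Figure D5:**
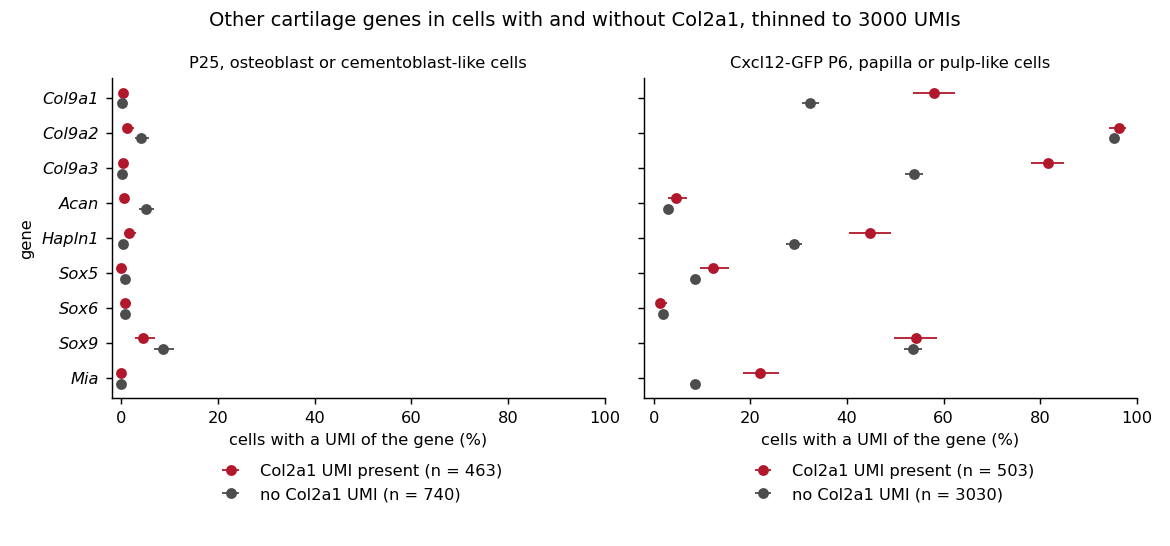
Share of cells with a UMI of each other gene, in cells with (red) and without (grey) a Col2a1 UMI, thinned to 3000 UMIs, with exact 95% intervals for counting error. In P25 osteoblast or cementoblast-like cells all shares are under 10%, while in Cxcl12-GFP P6 papilla or pulp-like cells Col9a1 is found in 58.1% of Col2a1-positive and 32.4% of other cells.

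Day 6 bone-forming cells differed by library. In Cxcl12-creER P6, cluster 12 (43 cells, median 1209 UMIs) had 948 CPM of Col2a1, 1057 CPM of Col11a2 and 4379 CPM of Ibsp, cluster 7 had 142 CPM of Col2a1, and cluster 10 had 0. Cluster 10 goes in part against its name, with Bglap at 9059 CPM but Ibsp at 0, 1 UMI of Spp1, and leading genes Coch, Tubb3 and Ifitm5 that also led the P25 odontoblast-like cluster. Without it the class had 465 CPM (398 to 541) of Col2a1, against 395 CPM with it. These class and cluster levels rest on 170 Col2a1 UMIs in 24 cells. Unnamed cluster 16 of that library (36 cells) had 838 CPM of Col2a1 with Ibsp, Bglap, Sp7 and Col11a2 at 0 and was led by Apod, Thbs4 and Ccl11. In Cxcl12-GFP P6 the class was 1 cluster with 83 CPM of Ibsp and 5.42 CPM of Col2a1. P25 over Cxcl12-GFP P6, of 4 genes tested Col2a1 was higher (1511 CPM against 5.42 CPM), Col9a2 (8.93 against 114 CPM) and Col9a3 (0.547 against 30.5 CPM) were lower and Sox9 was within 2-fold, where 8.46% of all genes were called higher and 23.4% lower, 31.8% in either direction (of 6462) and the median log2 ratio was -0.49. Of 6 other cartilage matrix genes tested, 2 were higher and 4 lower, with Col11a2 at 824 CPM at P25 against 2.03 CPM and Matn4 at 17.2 CPM against 1958 CPM. Bglap was 92749 CPM in P25 cluster 3 and 210 CPM in Cxcl12-GFP P6 cluster 9, so this bone marker differed widely between clusters of the same name, and the Col2a1, Col9a2, Col9a3 and Sox9 levels of the day 6 cluster were at its endothelial-like level, so no exact fold is read.

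Col2a1 was also counted in other classes at P25, at 33.1 CPM in neutrophil-like cells, 24.5 CPM in connective tissue fibroblast-like cells and 141 CPM in 45 erythroid-like cells of median 23021 UMIs. The part that free RNA or doublets play there was not tested. Macrophage-like cells of that library had 4.09 CPM, and the osteoblast-like level was 370-fold above them (224 to 661).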

How the data were processed

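What the authors deposited for each library is a matrix of raw UMI counts, with genes in rows and barcodes in columns. Alignment was to mm10 with Cell Ranger, followed by Seurat, per the submitters' processing notes, and the version is 3.1.0 at P25 and 6.0.0 in Cxcl12-creER P6, per the file headers. Chemistry was 3' v3, per the labels' protocols. How the counting treated strand and overlapping genes is not stated in those sources.

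Barcodes with under 500 genes (741 in P25, 536 in Cxcl12-creER P6, 3 in Cxcl12-GFP P6) or over 15% mitochondrial UMIs (295, 24 and 8) were left out, and the highest doublet scores were removed at 0.8% per 1000 cells (256, 10 and 452 cells), a number set by that rate and not by the scores. Each library was clustered alone (2000 variable genes, 30 principal components, 15 neighbours, Leiden resolution 1) in leidenalg 0.10.2 and igraph 0.11.9 (Python 3.11.15 with scipy 1.17.1, numpy 2.4.6 and scikit-learn 1.9.0), leaving the cartilage genes out of the variable genes. Clusters took the name of the best of 20 marker lists with at least 3 markers that were 1.5-fold above the marker's 25th percentile over clusters and found in at least 10% of cells, where that list scored 0.5 or more and either beat the runner-up by 0.3 or supplied leading genes of the cluster. A second list within 0.3 of the best gave the name instead where it held at least 2 more of the 10 leading genes. By this rule P25 cluster 2, 427 of the ligament-like cells, scored 2.81 on its list and 3.1 on the osteoblast or cementoblast list. P25 cluster 5, named odontoblast, scored 4.722 and 4.741 on those of odontoblast and osteoblast or cementoblast. A cluster stayed unnamed where another list held more of its 10 leading genes, or where cycling genes led. It also stayed unnamed where only 3 markers were found and none was a leading gene. For the first of these reasons P25 cluster 12 was left out of the pulp-like class, though papilla or pulp was its best list (0.864 against 0.249). Cxcl12-GFP P6 cluster 6 was likewise left out of the follicle-like class (1.991 against 1.068). These naming limits were chosen with the clusters already in view. The genes, lists and markers were chosen with earlier results of these data known. Genes of the lists are named by a rule: up to 4 per list and comparison with the largest log2 ratio past 2-fold. Other named genes were chosen after their values were seen.

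Summed counts were scaled to CPM over the 27040 shared identifiers. Levels of the reporter and Cxcl12 by cluster of Cxcl12-GFP P6, and the ranking of genes most like Col2a1 and Col9a1, used that library's full gene list. Intervals are exact Poisson for CPM, exact conditional binomial for ratios and Clopper-Pearson for shares. Since a group is 1 library, no test was run and no p-value is given: cells of a library are not replicates. The fold and thinning steps were tested on simulated counts. Gene positions are from GENCODE M21 (GRCm38) and upstream windows from RefSeq (GRCm38.p6). Alternatives changed the pseudocount, the CPM minimum, the scaling, the clustering resolution, naming, filters and thinning.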

Additional observations from a re-analysis of the deposited data

Results flagged for a closer look

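Acan and Col2a1 stood out because their direction differed between libraries and between classes; the difference was not tested in either case, since each library is 1 sample. For Acan the pulp-like over ligament-like log2 ratio was -4.33 at P25, and the papilla-like over follicle-like log2 ratio was 2.89 in Cxcl12-GFP P6. Seen the other way, from the same 4 class sums, its log2 ratio of P25 over Cxcl12-GFP P6 was -2.43 in papilla or pulp-like and 4.79 in follicle or ligament-like cells. The Cxcl12-GFP P6 follicle-like level rests on 9 UMIs and was not told apart from endothelial-like cells, which leaves the size of these differences uncertain.

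For Col2a1 the pulp-like over ligament-like log2 ratio was -1.45 at P25 and the papilla-like over follicle-like log2 ratio 3.87 in Cxcl12-GFP P6, and its log2 ratio of P25 over Cxcl12-GFP P6 was -3.63 in papilla or pulp-like and 1.69 in follicle or ligament-like cells. Both P25 levels, 4.31 and 13.5 CPM, are under 20 CPM, and the first is at the macrophage-like level of 4.09 CPM. The follicle-like level of Cxcl12-GFP P6, 3.49 CPM, is at the endothelial-like level of 7.05 CPM.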

How the results depend on the processing

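Counts of cartilage genes past 2-fold were recomputed under up to 10 alternatives. Those for the P25 pulp and the osteoblast comparisons were chosen after seeing the data. The count ran from 7 to 10 (8 as reported) for papilla-like over follicle-like cells of Cxcl12-GFP P6, and from 6 to 8 (7 as reported) for P25 over Cxcl12-GFP P6 in papilla or pulp-like cells. With a minimum of 50 CPM, the count was 4, against 7 as reported, for pulp-like over ligament-like cells at P25, all 4 higher, and 2, against 5, for P25 over Cxcl12-GFP P6 in follicle or ligament-like cells, both lower, since Acan at 49.6 CPM is then not tested. With no minimum it was 5, against 3 as reported, for osteoblast-like over ligament-like cells at P25, and 6, against 3, for P25 over Cxcl12-GFP P6 in osteoblast-like cells. The share of Col9a1-positive Cxcl12-GFP P6 cells with a Col2a1 UMI was 11.5% at 1000 UMIs and 33.9% unthinned, against 20.8% as reported. Of 550 single-gene log2 ratios under alternatives, 385 moved by at most 50% of the width of their interval, 165 moved further and 0 changed sign while past 2-fold. No pulp-like class of 50 cells was left at P25 at resolution 0.5, and the osteoblast comparison between libraries had no value at resolution 0.5, at 10% mitochondrial UMIs or without doublet removal. No paired analysis was possible because each group is 1 library, and no replicate could be left out. Depth limits Sox5, Sox6 and Cxcl12-creER P6 values.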
